A study of Mus musculus with 4 samples.

Results

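Beta-catenin, the proteins that destroy it and the DNA-binding factors it works with form the core of canonical Wnt signalling. Their transcripts were followed here in cultured mouse natural killer (NK) cells with and without DKK2 (Dickkopf 2). The set holds 10 genes chosen by name: Ctnnb1, Apc, Axin1, Axin2, Gsk3a, Gsk3b, Csnk1a1, Tcf7, Lef1 and Tcf7l2. Each stood on a single row of the deposited table, among 37305 rows in all. The cells were primary splenic NK cells of the C57BL/6 strain at postnatal day 56, and all groups were first kept for 24 hours in recombinant murine IL-15 at 50 ng/ml. The control group (2 libraries) then had mock treatment and the DKK2 group (2 libraries) had DKK2 at 200 ng/ml, each for 24 more hours. How the NK cells were isolated, whether a library came from pooled animals and where the DKK2 protein came from are not given in the sources used here. Nor do those sources say that replicates were separate animals or cultures, so a p-value reflects just the variation among these libraries, possibly technical.

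As background, the scaffold Axin and the tumour suppressor APC hold beta-catenin so that casein kinase 1 alpha and then GSK3 phosphorylate it, which marks it for ubiquitin and the proteasome. When a Wnt ligand engages Frizzled and the co-receptors LRP5 or LRP6, this destruction complex is inactivated, and beta-catenin enters the nucleus to act with TCF/LEF factors. DKK2 binds LRP5 and LRP6. In lymphocytes the TCF/LEF factors TCF-1 (gene Tcf7) and LEF1 are known for their roles in T cell, innate lymphoid and NK cell development, while the complex itself acts mainly at the level of protein stability, which RNA levels do not show.

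Lef1 and Axin2 are textbook target genes of the same pathway, so the DNA before their transcription starts is shown. The windows are the 250 bases before a RefSeq start on build GRCm38.p6, written 5′ to 3′ on the gene's strand, in lower case, with the TCF core motif CTTTGA or its reverse complement TCAAAG in capitals.
Lef1, before the start lying farthest upstream, chr3:131110047-131110296 (plus strand): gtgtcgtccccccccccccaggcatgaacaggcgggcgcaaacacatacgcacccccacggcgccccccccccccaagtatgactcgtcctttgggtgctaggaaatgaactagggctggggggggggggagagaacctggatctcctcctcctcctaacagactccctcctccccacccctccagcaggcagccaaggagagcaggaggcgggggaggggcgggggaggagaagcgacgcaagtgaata
Lef1, before the internal start lying farthest downstream, chr3:131156044-131156293 (plus strand): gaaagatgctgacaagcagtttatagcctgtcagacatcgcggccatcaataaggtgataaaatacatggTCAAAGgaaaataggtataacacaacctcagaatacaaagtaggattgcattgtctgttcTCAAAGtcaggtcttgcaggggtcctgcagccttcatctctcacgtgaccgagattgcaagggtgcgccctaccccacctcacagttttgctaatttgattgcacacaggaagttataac
Axin2, chr11:108920099-108920348 (plus strand): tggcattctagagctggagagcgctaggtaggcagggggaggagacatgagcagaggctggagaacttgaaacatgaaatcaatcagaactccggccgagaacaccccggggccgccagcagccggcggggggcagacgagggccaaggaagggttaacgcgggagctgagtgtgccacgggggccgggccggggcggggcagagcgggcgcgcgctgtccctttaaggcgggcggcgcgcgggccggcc

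The Lef1 and Axin2 windows at the gene's 5′ end lie before the first exon of the GENCODE M21 annotation of the same build and hold no match. The internal Lef1 window shown lies in an intron and holds 2 matches, both on the reverse strand. Another internal Lef1 window, nearer the 5′ end and not shown, holds none. RefSeq windows were found for 7 of the 10 genes, and for Apc, Axin1 and Csnk1a1 none was matched. Of their 13 windows, 3 held the motif (the internal Lef1 window shown, Gsk3a and Gsk3b), while 13.8% of all 32851 windows of that length held it. The 13 windows had a median GC content of 66.4%, against 52.4% over all windows, and 9 were above the upper quartile of 61.2%. A match is a description of letters, and no binding was measured.

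The libraries carried NK cell transcripts. All 11 NK markers listed, among them Ncr1 and Klrk1, were detected in every library, with a median of 489.2 to 613.2 FPKM (fragments scaled to transcript length and to library size). Other cell types differed between libraries. Of 9 T cell markers, 9 were lowest in control replicate 1, where Cd8a and Cd8b1 were listed at 0, and the same held for 6 of 6 B cell, 8 of 8 monocyte and macrophage and 6 of 6 neutrophil markers. Of 4 erythroid markers, 2 were lowest there and the other 2 were listed at 0 both there and in DKK2 replicate 1. No read totals come with the table. Judged by the step size among low values, sequencing went deepest in control replicate 1, with 0.351 to 0.401 of that depth elsewhere.

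**Figure D1:**
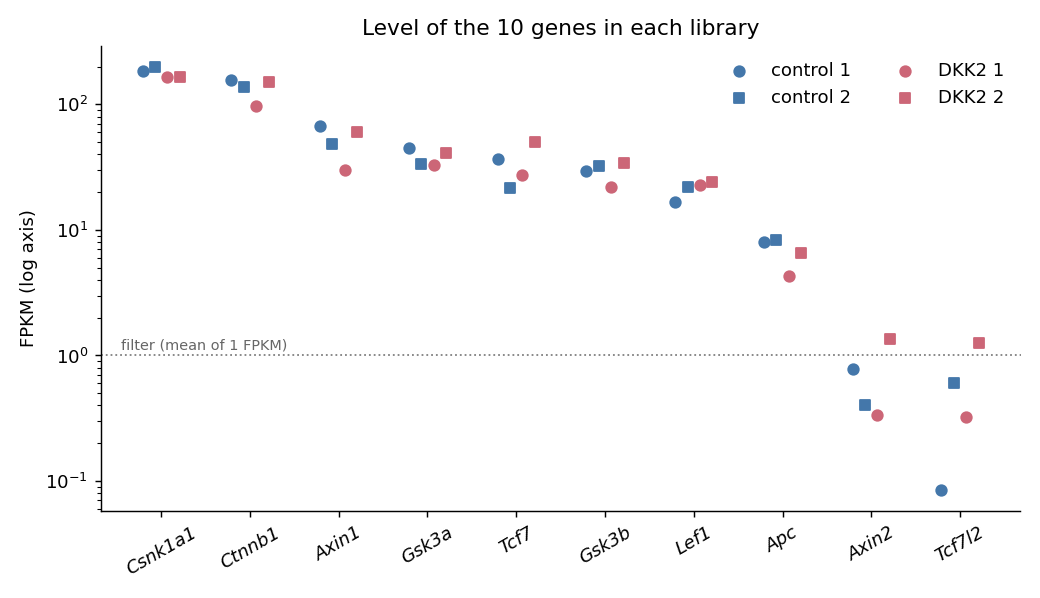
FPKM (log axis) of the 10 genes in each of the 4 libraries, ordered by mean: circles are replicate 1, squares replicate 2, blue control and red DKK2; the dotted line marks the mean of 1 FPKM needed for testing. The mean falls from 178.1 FPKM for Csnk1a1 to 0.5707 FPKM for Tcf7l2, and only Axin2 and Tcf7l2 have means under the line.

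The genes covered a wide range of levels, and the plot of levels by library shows their order. FPKM values are per transcript length, so levels of different genes may be set side by side. Csnk1a1 (164.2 to 198.4 FPKM) was highest, then Ctnnb1 (96.69 to 156.9 FPKM), and these ranges did not overlap each other or those below. Axin1, Gsk3a, Tcf7, Gsk3b and Lef1 followed, with means of 51.48, 38.2, 33.8, 29.5 and 21.46 FPKM. Each of these overlapped its neighbour in the order, though Axin1 (29.99 to 67.15 FPKM) and Gsk3a (32.97 to 45.26 FPKM) lay wholly above Lef1 (16.6 to 24.25 FPKM). Apc was clearly lower (4.299 to 8.31 FPKM), and its range did not overlap those of Lef1 above and Axin2 below. Axin2 and Tcf7l2 overlapped each other.

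Among 12275 rows with a mean of at least 1 FPKM, values of log2(FPKM + 1) were compared between the groups with limma. Fold changes are on that scale and so come out too small for genes of low level. A negative value means lower with DKK2, and ± marks the standard error (SE). Of the 10 genes, 8 reached the filter and 2 (Axin2 and Tcf7l2) did not. By limma with Benjamini-Hochberg adjustment, 0 of the 8 passed the threshold of 0.05, with an adjusted p of 1 for each, and 0 of the 8 had an unadjusted p under 0.05. Over all rows tested 0.0326% passed after adjustment and 1.84% had an unadjusted p under 0.05. The fitted change was below 0 for 6 of the 8 and above 0 for Tcf7 and Lef1, with a median of -0.18, against 56.4% below 0 and a median of -0.05 over all rows tested. Both DKK2 libraries lay below both controls for 2 of the 8 (Apc and Csnk1a1), where 14.8% of all rows tested did so, and above both for 1 (Lef1), where 11.8% did. None of the 8 intervals of the fold change excluded 0. The median of the 8 was -0.11 after scaling the libraries to the same median, with the same 6 below 0, 0.07 without DKK2 replicate 1, with 2 below 0, and -0.35 without DKK2 replicate 2, with 7 below 0.

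Ctnnb1 encodes beta-catenin itself. It was at 156.9 and 136.9 FPKM in control replicates 1 and 2, and at 96.69 and 151.5 FPKM in DKK2 replicates 1 and 2. DKK2 replicate 1 alone was low, while DKK2 replicate 2 lay between the controls. The log2 fold change was -0.27 ± 0.32 (SE, 95% interval -1.11 to 0.56). Without DKK2 replicate 1 it was 0.05, and without DKK2 replicate 2 it was -0.59.

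Axin1 and Axin2 are the scaffolds of the destruction complex. Axin1, the widely expressed form, was at 67.15 and 48.66 FPKM under mock treatment and at 29.99 and 60.09 FPKM with DKK2. Here too DKK2 replicate 1 was below both controls and DKK2 replicate 2 between them (-0.42 ± 0.42, 95% interval -1.49 to 0.65). The difference between the DKK2 libraries, 0.98 on the log2 scale, exceeded the fitted difference between the groups. Without DKK2 replicate 1 the fold change of Axin1 was 0.07. Axin2, which Wnt signalling itself induces, was low. Its values were 0.7748 and 0.4006 FPKM in the controls and 0.3356 and 1.353 FPKM with DKK2, so the DKK2 libraries were the lowest and the highest of the 4. By the steps between low values and GENCODE M21 transcript lengths, these stand for about 43.4, 7.87, 7.49 and 30.4 fragments per kilobase of transcript in the same order. Of the summed FPKM of both scaffolds, Axin2 made up 1.141% and 0.8164% in the controls and 1.107% and 2.201% with DKK2.

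Apc encodes the large protein that, with Axin, brings beta-catenin to its kinases. Control replicates 1 and 2 had 8.07 and 8.31 FPKM of Apc, and DKK2 replicates 1 and 2 had 4.299 and 6.602 FPKM. The controls were close together, the DKK2 libraries were apart from each other, and the groups did not overlap. With -0.53 ± 0.30 (SE, 95% interval -1.32 to 0.25) this was the largest fitted difference among the 8 genes, and it did not pass limma (unadjusted p = 0.14, adjusted p = 1). Its sign held whichever library was omitted, with values between -0.79 and -0.27.

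Csnk1a1 encodes casein kinase 1 alpha, which places the priming phosphate on beta-catenin. Its values were 183.0 and 198.4 FPKM in the controls and 164.2 and 166.6 FPKM with DKK2. The DKK2 libraries were nearly equal and both were below the controls, by a small margin: the fold change was -0.20 ± 0.25 (95% interval -0.84 to 0.43, limma adjusted p = 1). Leaving out any 1 library gave -0.26 to -0.15, and scaling to the same median gave -0.13.

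Gsk3a and Gsk3b encode the closely related GSK3 kinases that extend the phosphorylation. Gsk3a was at 45.26 and 33.7 FPKM under mock treatment and at 32.97 and 40.87 FPKM with DKK2. Gsk3b was at 29.49 and 32.23 FPKM under mock treatment and at 21.96 and 34.32 FPKM with DKK2. For both genes the groups overlapped, with fold changes of -0.09 ± 0.28 for Gsk3a and -0.16 ± 0.31 for Gsk3b, and without DKK2 replicate 1 these were 0.06 and 0.15. Without control replicate 1 the value for Gsk3a was 0.12, and scaling to the same median gave -0.02 for Gsk3a and -0.09 for Gsk3b. Gsk3b made up 39.45% and 48.89% of the summed FPKM of both kinases in the controls and 39.98% and 45.64% with DKK2. The mean share differed by -1.36 percentage points (exact permutation test, two-sided, p = 1, where 2 libraries against 2 cannot go below 0.333).

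**Figure D2:**
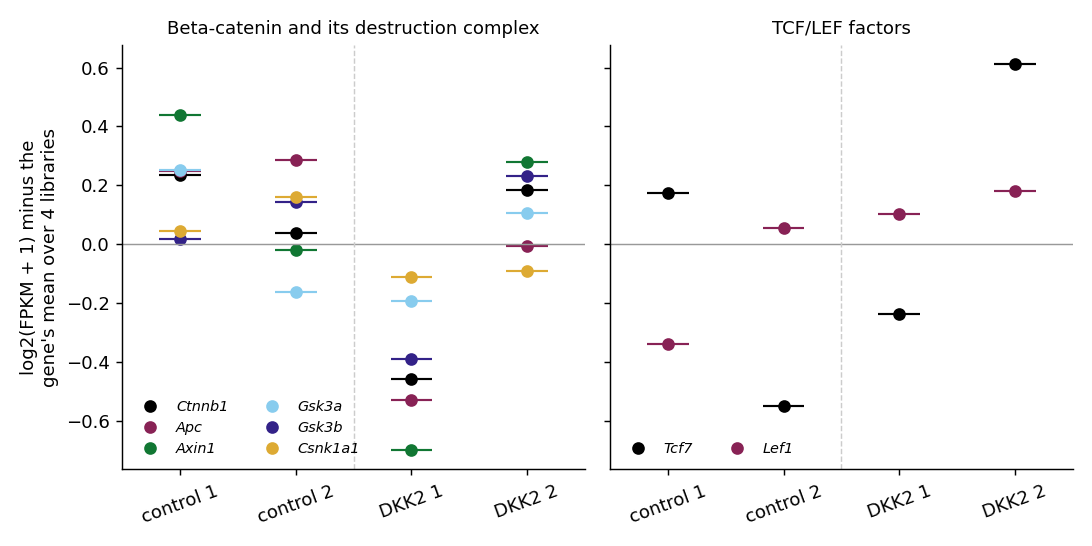
log2(FPKM + 1) of each tested gene minus its own mean over the 4 libraries, with beta-catenin and its destruction complex on the left and the TCF/LEF factors on the right; each point is 1 library. On the left, all 6 genes are lowest in DKK2 replicate 1; on the right, Tcf7 is lowest in control replicate 2 and Lef1 in control replicate 1.

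A shared feature of these genes was the place of DKK2 replicate 1, a pattern picked out after the values were seen. All 7 genes other than the TCF/LEF factors, Axin2 included, had their lowest value in that library, as the plot of values relative to each gene's mean shows for those tested. Among the 8 tested genes 6 were lowest there, and among all rows tested 35.3% were. The median of the 6, relative to each gene's mean, was -0.42 in DKK2 replicate 1 and 0.24, 0.09 and 0.15 in control replicates 1 and 2 and DKK2 replicate 2, while over all rows tested it was -0.05, 0.07, -0.02 and 0.02. When the libraries were scaled to the same median, an alternative added after seeing the data, 4 genes (Ctnnb1, Apc, Axin1 and Gsk3b) were still lowest in that library. Gsk3a was then lowest in control replicate 2 and Csnk1a1 in DKK2 replicate 2, and 27.7% of all rows tested were lowest in DKK2 replicate 1. Quantile normalization, added in the same way, left all 6 lowest there, with 31.6% of all rows tested. The place of DKK2 replicate 1 was not particular to this set. In the lists below, 12 of 22 regulators, 12 of 20 nuclear co-factors and 3 of 4 target genes tested were lowest there. For junction genes it was 2 of 5, and for TCF-1-associated genes 2 of 13. DKK2 replicate 1 also had the highest summed neutrophil markers, at 3355 FPKM against 1.035, 60.94 and 118.2 FPKM in control replicates 1 and 2 and DKK2 replicate 2, with 5 of 6 markers highest there. Its summed monocyte and macrophage markers were at 660.5 FPKM, mostly Lyz2 (552.3 FPKM), against 8.245, 213.1 and 355.1 FPKM. Of these 8 markers, 4 were highest in DKK2 replicate 1 and 4 in DKK2 replicate 2, with medians of 10.77 and 13.12 FPKM. Summed NK markers were also highest in DKK2 replicate 1, at 35910 FPKM, mostly Gzma (24310 FPKM), against 27300, 28070 and 23400 FPKM. Their median was 613.2 FPKM there, against 570.1, 489.2 and 509.0 FPKM. Of the 11 NK markers, 6 were highest and 2 lowest in that library. The most abundant row of DKK2 replicate 1, the microRNA entry mmu-mir-703, took 25.73% of all FPKM, against 11.8%, 17.09% and 8.444%. As FPKM is scaled to length, this is not a share of fragments. Summed FPKM was also largest in DKK2 replicate 1, at 1271686, against 1081201, 1070277 and 890788. The part of these differences in the low values of DKK2 replicate 1 was not tested.

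**Figure D3:**
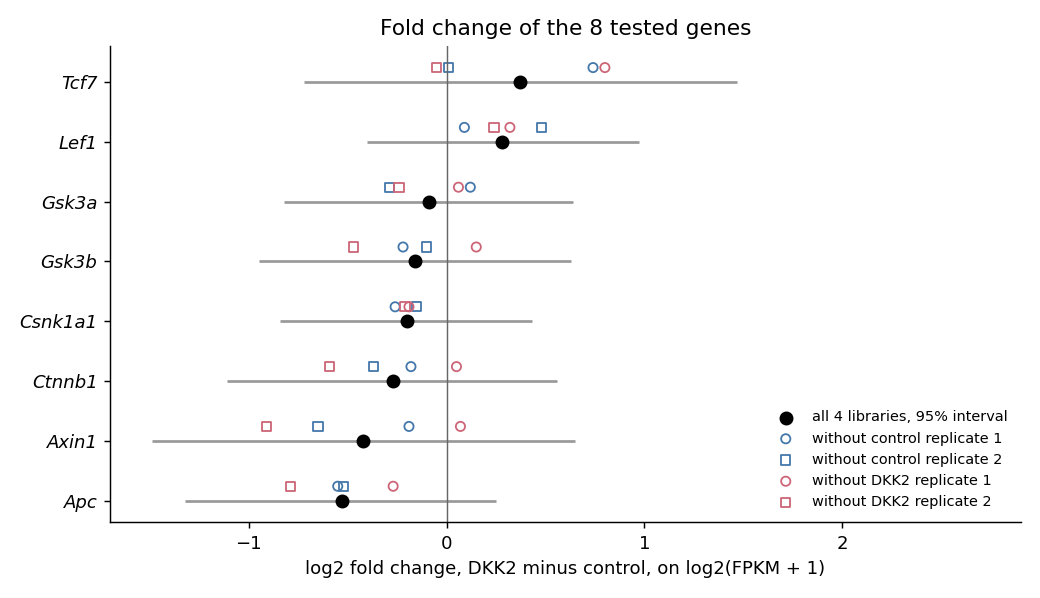
log2 fold change (DKK2 minus control, on log2(FPKM + 1)) of the 8 tested genes: black points and grey bars are limma's estimate and 95% interval from all 4 libraries, and open symbols the estimate with 1 library left out. Every interval includes 0, and only Apc, Csnk1a1 and Lef1 stay on 1 side of 0 whichever library is left out.

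Of the nuclear partners, Tcf7 and Lef1 were the abundant ones. Tcf7, which encodes TCF-1, was at 36.5 and 21.72 FPKM under mock treatment and at 27.17 and 49.79 FPKM with DKK2. The groups overlapped, with control replicate 2 lowest and DKK2 replicate 2 highest, and replicates of a group differed from each other by -0.72 (control replicate 2 minus 1) and 0.85 (DKK2 replicate 2 minus 1) on the log2 scale. The fold change of 0.37 ± 0.42 (SE, 95% interval -0.72 to 1.47) was smaller than either of these. Without DKK2 replicate 2 it was -0.05, without control replicate 2 it was 0.01, and without control replicate 1 or DKK2 replicate 1 it was 0.74 or 0.80.

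Lef1 was at 16.6 and 22.12 FPKM under mock treatment and at 22.87 and 24.25 FPKM with DKK2. Control replicate 1 was low, and the other 3 libraries lay close together, so the absence of overlap rests on a small step between control replicate 2 and DKK2 replicate 1 (0.05 on the log2 scale). The fold change was 0.28 ± 0.26 (SE, 95% interval -0.40 to 0.97), with 0.09 without control replicate 1 and 0.48 without control replicate 2. T cells also express Lef1 and Tcf7. The summed level of the 9 T cell markers was 29.07 and 130.4 FPKM in control replicates 1 and 2 and 225.8 and 179.8 FPKM in DKK2 replicates 1 and 2. Most of it was Cd3g, at 23.1, 87.28, 168.6 and 116.9 FPKM in that order. The median of the 9 was 0.1538, 2.26, 0.6736 and 2.973 FPKM, and 3 markers were highest in DKK2 replicate 1 and 6 in DKK2 replicate 2. Like Lef1, sum and median were lowest in control replicate 1, whereas Tcf7 was second highest there. Summed markers of other innate lymphoid cells were at 18.22, 29.85, 17.93 and 51.71 FPKM in the same order, and 4 of the 6 were lowest in control replicate 1. Il22 was listed at 0 both there and in DKK2 replicate 1. The remaining marker, Gata3, picked out after its values were seen, was at 15.31, 8.309, 9.61 and 22.72 FPKM and ranked the libraries as Tcf7 did. The part of other cells in the Lef1 and Tcf7 values was not tested. In such bulk samples, fewer cells of a type and less RNA per cell cannot be told apart.

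Tcf7l2 encodes TCF4, the factor best known from intestinal epithelium. It was at 0.08485 and 0.6089 FPKM under mock treatment and at 0.3247 and 1.264 FPKM with DKK2, or about 4.75, 12.0, 7.24 and 28.4 fragments per kilobase. The groups overlapped, and its mean was below the filter. In the alternative without a filter, over 22869 rows, its fold change was 0.39 ± 0.39 and that of Axin2 0.17 ± 0.37, and neither passed limma (adjusted p = 0.99 and 1). The summed B cell markers (0.6131, 18.44, 4.714 and 30.39 FPKM) and the summed erythroid markers (0.06641, 2.584, 0.7814 and 2.917 FPKM) ranked the libraries in the same order as Tcf7l2, a likeness noticed after the values were seen. It was not particular to these lists. The medians of the T cell markers (0.1538, 2.26, 0.6736 and 2.973 FPKM) gave the same order. So did those of the other innate lymphoid cell markers (0.7025, 3.826, 2.058 and 5.176 FPKM). The sums of these last lists, and of the monocyte and neutrophil markers, did not. Which cells held Tcf7l2 was not tested. Tcf7l1, the remaining family member, was at 0.4106 and 0.03628 FPKM under mock treatment and at 0.03196 and 0.5944 FPKM with DKK2.

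**Figure D4:**
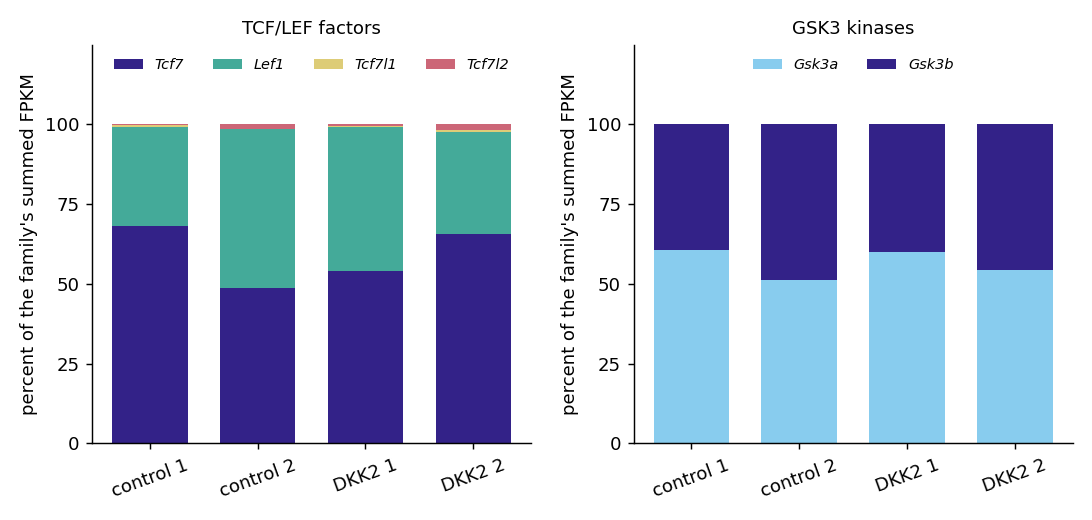
Share of each gene in the summed FPKM of its family, by library: TCF/LEF factors on the left and GSK3 kinases on the right. Tcf7 and Lef1 together fill nearly the whole TCF/LEF bar in each library, with Tcf7 between 48.83% and 68.1%.

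The balance between Tcf7 and Lef1 differed more within groups than between them. Tcf7 held 68.1% and 48.83% of the summed TCF/LEF FPKM in the controls and 53.91% and 65.6% with DKK2, and Lef1 held 30.97% and 49.72% and then 45.38% and 31.95%. In control replicate 2 Lef1 was slightly ahead, and in the other 3 libraries Tcf7 was ahead. Tcf7l2 never held more than 1.666% and Tcf7l1 never more than 0.7831%. The mean share of Tcf7 was 58.46% ± 13.63 (SD, n = 2) in the controls and 59.75% ± 8.267 (SD, n = 2) with DKK2, a difference of 1.29 percentage points (exact permutation test, two-sided, p = 1). That difference was -8.35 points without control replicate 2 and -4.56 points without DKK2 replicate 2, and 10.9 and 7.14 points without control replicate 1 and DKK2 replicate 1.

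Other genes around the destruction complex, taken from a list chosen by role, also gave no called difference. Of 25 such regulators, 22 were tested, 0 passed limma and 0 had an unadjusted p under 0.05. The fitted change was below 0 for 16 and above 0 for 6, with a median of -0.13, against 56.4% below 0 and -0.05 over all rows tested. In DKK2 replicate 1, 12 of the 22 were lowest, against 35.3% of all rows tested. The 4 with the highest levels were Skp1a and Cul1, parts of the ubiquitin ligase that receives phosphorylated beta-catenin, the phosphatase scaffold Ppp2r1a and the casein kinase Csnk1d. Skp1a was at 315.9 and 277.6 FPKM under mock treatment and at 329.6 and 273.8 FPKM with DKK2 (0.02 ± 0.27). Cul1 was at 155.4 and 167.3 FPKM and then at 181 and 122.5 FPKM (-0.11 ± 0.30). Unlike the kinases and scaffolds above, both were highest in DKK2 replicate 1. Csnk1d was at 127.6 and 108.5 FPKM under mock treatment and at 73.48 and 112.6 FPKM with DKK2 (-0.37 ± 0.31), and Ppp2r1a at 121.9 and 112 FPKM and then at 90.64 and 125.3 FPKM (-0.13 ± 0.28). For all 4 genes the groups overlapped. The list's median was -0.06 after scaling to the same median, -0.01 when replicate 1 of either group was left out, -0.18 without control replicate 2 and -0.20 without DKK2 replicate 2.

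Nuclear co-factors of beta-catenin and TCF were next. Of 26 listed, 20 were tested and 0 passed limma, also at an unadjusted p under 0.05. The fitted change was below 0 for 15 of the 20, with a median of -0.22, against 56.4% and -0.05 over all rows tested. Of the 20, 12 were lowest in DKK2 replicate 1, where 35.3% of all rows tested were. The 4 with the highest levels were the co-repressors Aes, Ctbp1 and Tle3 and the histone deacetylase Hdac1. Tle3, a Groucho-type partner of TCF factors, was at 58.35 and 47.53 FPKM in the controls, with 17.17 FPKM for DKK2 replicate 1 and 72.22 FPKM for DKK2 replicate 2 (-0.56 ± 0.69). The DKK2 libraries were thus the lowest and the highest. Aes was at 138.2 and 93.74 FPKM under mock treatment and at 81.1 and 141.3 FPKM with DKK2 (-0.09 ± 0.39). Ctbp1 was at 69.11 and 46.06 FPKM and then at 38.49 and 55.23 FPKM (-0.29 ± 0.34). Hdac1 hardly varied, at 45.9 and 45.36 FPKM and then at 45.04 and 43.41 FPKM (-0.04 ± 0.23), and it was the only one of the 4 whose groups did not overlap. The list's median was -0.09 without a filter. It became -0.01, with 10 of 20 below 0, when DKK2 replicate 1 was omitted, and -0.43 when DKK2 replicate 2 was.

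Few target genes of the pathway were expressed enough to test. Of 20 listed targets other than Axin2, Lef1 and Tcf7, 16 were below the filter, and 5 of these were listed at 0 in every library. Of all 37305 rows, 25030 were below the filter and 14436 were listed at 0 in every library. The 4 targets tested had a median of -0.16 (0.01 without DKK2 replicate 1, -0.36 without DKK2 replicate 2 and -0.25 without control replicate 2). Of the 4, 3 were below 0, against 56.4% of all rows tested, and 0 passed limma or had an unadjusted p under 0.05. Cd44, an adhesion receptor that is also a general lymphocyte activation gene, was at 87.28 and 94.18 FPKM under mock treatment and at 52.28 and 119.3 FPKM with DKK2 (-0.20 ± 0.44). Its DKK2 libraries were the lowest and the highest. The membrane ubiquitin ligases Rnf43 and Znrf3, which remove Frizzled from the surface, were both present. Rnf43 was at 13.93 and 11.44 FPKM under mock treatment and at 9.865 and 13.29 FPKM with DKK2 (-0.13 ± 0.28). Znrf3 was at 4.148 and 4.32 FPKM and then at 2.969 and 3.587 FPKM (-0.29 ± 0.29), without overlap of the groups. Myc was at 64.62 and 45.09 FPKM in the controls, a range that held both DKK2 libraries (57.58 and 52.03 FPKM).

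Beta-catenin also links cadherins to actin at cell junctions. Of 11 catenin and cadherin junction genes, 5 were tested, with 0 past limma, 0 at an unadjusted p under 0.05 and a median of 0.43. Of the 5, 2 were below 0, and 1 after scaling to the same median, against 56.4% and 48.7% of all rows tested. The median became -0.02 when control replicate 1 was omitted, 0.26 when control replicate 2 was, 0.86 when DKK2 replicate 1 was and 0.00 when DKK2 replicate 2 was, and it was -0.08 where a mean of 5 FPKM was required. The alpha-catenin gene Ctnna1 was at 52.85 and 48.68 FPKM under mock treatment and at 42.66 and 53.72 FPKM with DKK2 (-0.08 ± 0.26). Jup, which encodes the beta-catenin relative gamma-catenin, was far below Ctnnb1, at 3.339 and 2.409 FPKM and then at 2.855 and 5.96 FPKM (0.43 ± 0.41). Vcl (vinculin) was at 2.929 and 3.625 FPKM and then at 2.248 and 4.436 FPKM. Ctnnd1 (p120-catenin) stood at 0.1083 FPKM in control replicate 1 and at 2.606 FPKM in control replicate 2, with 1.765 and 2.765 FPKM in the DKK2 libraries.

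Genes associated with TCF-1 in lymphocytes did not pass the test either, and more of them had fitted changes above 0. Of 14 listed, 13 were tested, 8 above 0 and 5 below, with a median of 0.41, 0 past limma and 0 at an unadjusted p under 0.05. Over all rows tested, 43.6% were above 0, with a median of -0.05. In this list 8 of the 13 were lowest in control replicate 1, against 17.9% of all rows tested, as were the T cell markers. Both DKK2 libraries lay above both controls for 4 of the 13 (Ccr7, Slamf6, S1pr1 and Klf2), against 11.8% of all rows tested. They lay below both controls for 1 of the 13, against 14.8%. The 4 genes named, picked out after their values were seen, were each lowest in control replicate 1. The chemokine gene Xcl1 was at 2507 FPKM in control replicate 1 and at 346.3 FPKM in control replicate 2, with 476.6 and 595.4 FPKM in the DKK2 libraries (-0.81 ± 0.96). The T-box factor Eomes was at 154.6 and 195.7 FPKM and then at 198 and 179.9 FPKM (0.12 ± 0.27), and the chromatin organizer Satb1 at 112.6 and 88.74 FPKM and then at 89.41 and 111.6 FPKM. Il7r and S1pr1, again named after their values were seen, were at 1.073 and 0.5538 FPKM in control replicate 1 and at 21.91 to 28.01 and 7.649 to 11.56 FPKM in the others. The list's median ranged from 0.12 without DKK2 replicate 2 to 0.73 without DKK2 replicate 1, with 0.29 and 0.66 without control replicates 1 and 2. It was 0.72 with a pseudocount of 0.1, 0.15 after quantile normalization and 0.06 where a mean of 5 FPKM was required.

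For 3 genes of the set the rows with the most similar profile were sought, by the Euclidean distance between centred log2(FPKM + 1) values over the 4 libraries. Nearest to Ctnnb1 were Icmt (distance 0.009), Nphp4 (0.029) and Diap1 (0.033). Icmt was at 12.67, 10.84, 7.412 and 12.09 FPKM in control replicates 1 and 2 and DKK2 replicates 1 and 2, low in DKK2 replicate 1 as Ctnnb1 was. Nearest to Tcf7 were Scrib (0.039), Pde2a (0.12) and Tceal3 (0.16), with Scrib at 5.075, 2.655, 3.478 and 7.38 FPKM. Nearest to Lef1 were Atp8a1 (0.036), Gm4070 (0.04) and Mettl17 (0.045), with Atp8a1 at 4.804, 6.705, 6.88 and 7.591 FPKM. With 4 libraries and 12275 rows, such close profiles describe these libraries only.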

How the data were processed

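RNA was measured in 4 libraries, made per the labels' protocols with a stranded total RNA kit. The deposited table holds FPKM values, per the file headers. Build mm9 and the tools TopHat2 2.1.0, Cuffdiff 2.1.0, CASAVA and edgeR appear, without roles, per the submitters' processing notes. Annotation and strand setting are not given in the sources used here. Titles matched each of the 4 value columns to a sample. FPKM carries no read counts, so values were taken as log2(FPKM + 1). Rows with a mean of at least 1 FPKM (12275) were fitted in limma 3.58.1 (R 4.3.3) with a trend on the mean, two-sided, with Benjamini-Hochberg adjustment and a threshold of 0.05. The fit was tested on simulated data with independent noise and changes larger than any fitted for the genes of the set. That test therefore does not bear on differences of the size seen here.

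Relative depth came from the most frequent ratio between values under 0.3 FPKM. In a 1 kb transcript, 1 fragment corresponds to about 0.0179 FPKM in control replicate 1 and 0.0446 to 0.0509 FPKM in the others. The value for control replicate 1 is the most frequent product of low FPKM and GENCODE M21 transcript length, over genes with a single transcript. That annotation need not be the one used for the deposited values, so fragment numbers are approximate. A listed 0 may be a failed estimate. Promoter windows are RefSeq's on GRCm38.p6, a build other than that of the table, which gives no coordinates. The alternatives were other pseudocounts, filters and scalings, no trend, a replicate block and leaving out each library. Genes named beside the 10 are the 4 of highest mean in each list and the 3 nearest profiles, except where said; 1 gene that this rule names is not reported here. Members and lists were chosen with earlier results of these data known.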

Additional observations from a re-analysis of the deposited data

How the results depend on the processing

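The count of rows past the threshold, 4 with all libraries (226 at an unadjusted p under 0.05), was 0 without a filter (949) and 0 whichever library was omitted (150 to 855). With the replicate number as a block it was 8 (383). The labels do not say that numbers pair the libraries, and replicate differences correlated between the groups at only 0.012 across genes, so they were taken to share only a number. None of the 8 tested genes passed limma under any of the 13 alternatives, the block included, nor did Axin2 and Tcf7l2 without a filter. Their fold changes kept their sign in 72 of 72 fits with all libraries, and changed it in 6 of 32 that left out a library. Other filters, no trend and the block leave a gene's fold change as it is by design. Among fits with all libraries, only other pseudocounts and scalings could therefore change a sign. Omitting libraries gave ranges of -0.59 to 0.05 for Ctnnb1, -0.91 to 0.07 for Axin1, -0.29 to 0.12 for Gsk3a, -0.47 to 0.15 for Gsk3b, -0.05 to 0.80 for Tcf7 and 0.09 to 0.48 for Lef1. The positive values of the first 4 came without DKK2 replicate 1, for Gsk3a also without control replicate 1, and the negative value of Tcf7 without DKK2 replicate 2. Without a library, the share difference of Tcf7 ranged from -8.35 to 10.9 percentage points and that of Gsk3b from -6.08 to 3.36. Every gene of these families stood on a single row, so summing all rows of a symbol could not change the shares. List medians moved by more than the spread between replicates in 11 of 78 alternatives, a total that includes no trend and the block, which could not move them. For junction genes the median was -0.08 and for TCF-1-associated genes 0.06 under a filter of 5 FPKM, where fewer genes are tested. Depth limits the values of Axin2, Tcf7l2 and Tcf7l1.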
